A study of Mus musculus with 8 samples.

Results

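SMC1 peaks found at rest but not after NMDA, lying inside protein-coding genes of 300 kb or longer, numbered 787 and are called long-gene peaks here. SMC1 is a core subunit of cohesin, mapped by chromatin immunoprecipitation and sequencing (ChIP-seq) in cultured mouse cortical neurons. The peaks were chosen by their presence in the resting list, the absence of any overlapping NMDA peak, a midpoint more than 1 kb from every annotated gene end, and the length of the surrounding gene. They were 6.37% of the 12359 resting peaks and 7.13% of the 11038 resting peaks without an NMDA peak. Both peak calls thus entered the choice, so the absence of NMDA peaks at these sites is no result of its own. Of 848 resting peaks inside such genes, 787 had no NMDA peak (92.8%), beside 89.3% of all resting peaks, and nothing is read from that share.

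The NMDA group consisted of neurons at day 13 in vitro that received 50 µM NMDA for 10 min and were collected 50 min after washout. The resting group had the treatment label None. Neurons of both groups were labelled wild type and were dissociated from cortex of Swiss-Webster embryos at embryonic day 16, and each group had 2 ChIP replicates, labelled biological, of about 15 M cells. No label says whether the replicates came from separate litters, and cell type markers cannot be read from a peak list, so the neuronal identity of the cultures was not checked. Each condition was represented by 1 list of peaks found in both replicates, 1684 after NMDA and 12359 at rest. Library depth is unknown from these lists.

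Cohesin is a ring of SMC1, SMC3 and RAD21 that entraps chromatin and extrudes it into loops. Loops often end where the ring meets the DNA-binding protein CTCF, and cohesin is also loaded or held at active promoters and enhancers. Very long genes are prominent in neurons, where many of them encode adhesion molecules, ion channels and synaptic scaffolds. They often contain several promoters and large introns that carry regulatory elements.

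A set of long-gene peaks lay over transcript starts inside their genes, and the DNA at 8 of these starts is shown because it is the sequence under the peaks that the reference tables hold. Each line gives the window from 250 bases before to 50 bases after a RefSeq start on GRCm38.p6, written 5′ to 3′ on the gene's strand, with every CpG dinucleotide in capitals. The first 4 windows belong to the strongest peaks over such starts, and the other 4 to the peaks whose midpoints were nearest to the start. Ntm (chr9:29412636-29412935, minus strand) encodes the adhesion molecule neurotrimin. Nav2 (chr7:49245939-49246238, plus strand) encodes a neuron navigator, and Ntng1 (chr3:110143423-110143722, minus strand) encodes netrin-G1. Magi1 (chr6:93912914-93913213, minus strand) encodes a scaffold of cell junctions. Rarb (chr14:16575427-16575726, minus strand) encodes a retinoic acid receptor, Nlgn1 (chr3:26153937-26154236, minus strand) the postsynaptic adhesion molecule neuroligin 1, and Grik2 (chr10:49788705-49789004, minus strand) a kainate receptor subunit. The last window is at Pakap (chr4:57567998-57568297, plus strand).
Ntm: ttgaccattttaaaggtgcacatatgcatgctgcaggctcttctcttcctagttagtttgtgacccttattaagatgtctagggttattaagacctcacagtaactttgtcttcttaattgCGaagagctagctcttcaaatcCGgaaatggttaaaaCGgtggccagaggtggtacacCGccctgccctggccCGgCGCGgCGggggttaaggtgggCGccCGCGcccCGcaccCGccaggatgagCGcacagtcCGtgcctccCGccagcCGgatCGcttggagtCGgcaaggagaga
Nav2: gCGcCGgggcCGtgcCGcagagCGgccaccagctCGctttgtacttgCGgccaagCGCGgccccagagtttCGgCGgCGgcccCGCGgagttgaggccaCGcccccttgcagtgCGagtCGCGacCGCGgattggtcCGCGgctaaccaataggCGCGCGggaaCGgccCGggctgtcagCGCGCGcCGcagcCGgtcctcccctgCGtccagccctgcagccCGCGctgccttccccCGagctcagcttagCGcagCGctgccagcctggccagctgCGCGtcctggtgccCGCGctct
Ntng1: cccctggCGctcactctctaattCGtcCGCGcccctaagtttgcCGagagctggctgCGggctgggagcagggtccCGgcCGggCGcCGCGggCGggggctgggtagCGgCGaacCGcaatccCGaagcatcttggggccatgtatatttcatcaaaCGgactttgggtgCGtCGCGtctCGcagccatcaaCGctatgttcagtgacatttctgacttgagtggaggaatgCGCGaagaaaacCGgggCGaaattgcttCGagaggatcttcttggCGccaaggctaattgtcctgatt
Magi1: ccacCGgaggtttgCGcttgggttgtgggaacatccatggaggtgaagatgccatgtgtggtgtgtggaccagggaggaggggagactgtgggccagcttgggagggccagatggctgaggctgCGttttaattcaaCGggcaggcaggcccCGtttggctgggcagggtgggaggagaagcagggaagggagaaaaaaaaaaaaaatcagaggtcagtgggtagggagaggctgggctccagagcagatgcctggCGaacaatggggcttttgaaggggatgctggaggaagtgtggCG
Rarb: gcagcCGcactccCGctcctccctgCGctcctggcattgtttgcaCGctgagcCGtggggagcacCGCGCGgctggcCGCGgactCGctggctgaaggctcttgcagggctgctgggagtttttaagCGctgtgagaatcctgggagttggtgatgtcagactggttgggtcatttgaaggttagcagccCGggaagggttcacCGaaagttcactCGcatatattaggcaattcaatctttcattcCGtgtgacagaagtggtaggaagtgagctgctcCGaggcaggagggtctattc
Nlgn1: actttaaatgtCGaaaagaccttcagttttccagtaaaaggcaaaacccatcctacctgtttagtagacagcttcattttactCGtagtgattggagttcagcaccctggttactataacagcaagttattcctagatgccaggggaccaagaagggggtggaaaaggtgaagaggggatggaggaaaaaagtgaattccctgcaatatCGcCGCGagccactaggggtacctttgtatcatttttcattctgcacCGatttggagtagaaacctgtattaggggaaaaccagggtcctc
Grik2: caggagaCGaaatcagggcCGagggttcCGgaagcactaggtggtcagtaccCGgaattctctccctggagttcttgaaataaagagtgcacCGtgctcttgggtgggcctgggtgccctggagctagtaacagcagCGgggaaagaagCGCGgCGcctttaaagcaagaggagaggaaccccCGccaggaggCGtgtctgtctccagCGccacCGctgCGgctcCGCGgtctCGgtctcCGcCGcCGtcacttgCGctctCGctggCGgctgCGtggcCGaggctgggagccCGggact
Pakap: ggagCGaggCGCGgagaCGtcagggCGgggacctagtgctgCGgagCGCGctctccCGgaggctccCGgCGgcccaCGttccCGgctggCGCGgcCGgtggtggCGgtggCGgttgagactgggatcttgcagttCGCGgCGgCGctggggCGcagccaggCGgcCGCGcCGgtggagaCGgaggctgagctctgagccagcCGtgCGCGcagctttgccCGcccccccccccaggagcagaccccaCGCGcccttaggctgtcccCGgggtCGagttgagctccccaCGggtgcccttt

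These windows differ widely in CpG content. The Nav2, Pakap and Ntng1 windows held 42, 37 and 28 CpG dinucleotides in 300 bases. Those of Magi1 and Nlgn1 held 7 and 6. All 8 windows lay entirely within their peak.

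Peak strength is the authors' −log10 p of the peak caller, summed over both replicate columns. At Ntm the replicate columns had 30.9 and 14.7. At Nav2 they had 17.5 and 27.4, and at Ntng1 24.4 and 17.8. The columns carry no replicate number, and neither was consistently the higher of the pair. Magi1 had 23.6 and 18.003. Of the 4 peaks nearest to a start, the replicate columns had 12.8 and 10.8 at Rarb, 10.8 and 14.0 at Nlgn1, and 16.3 and 8.02 at Grik2. Pakap had the most unequal pair of the 8, 8.26 and 25.2. The first 4 were chosen for their strength, so no order between the sets is read from these values.

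Starts away from gene ends were then counted. The promoter table listed 321 start windows inside 202 very long genes, more than 1 kb from any annotated gene end. A long-gene peak overlapped 29 of them by 1 bp or more (9.03% of all such starts, 95% interval 6.13 to 12.7%), in 24 genes. A shared resting peak inside the gene overlapped 13, and an NMDA peak without either kind of resting peak 3. The other 276 are called windows with no peak. Resting peaks with a midpoint within 1 kb of a gene end were not counted for these classes. A window with no peak can thus lie under such a peak, as a Gse1 window did (strength 89.3). Neighbouring starts can share a peak, so the 29 windows corresponded to 25 peaks. These were 3.34% of the 749 long-gene peaks outside chromosome 18 (2.17 to 4.89%), which the table does not list. Among resting-only peaks inside shorter genes the share was 5.999% (184 of 3067, 5.18 to 6.90%). Of shared resting peaks inside very long genes it was 21.1% (12 of 57, 11.4 to 33.9%). Shared peaks were wider (median 1047 bp against 615 bp for long-gene peaks), and a wider peak meets a window more often. The number of internal starts in shorter genes is not given, so no difference is read from these shares. Intervals for shares are exact binomial (Clopper-Pearson) and reflect the counting of peaks, not the variation between cultures.

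Further genes with a peak over an internal start were Adgrl3, a latrophilin receptor, where adjoining peaks (36.8 and 33.2) covered 3 listed starts, and the transcription factor genes Zfhx3 (23.8), Creb5 (23.6) and Foxp1 (21.3). The cation channel gene Trpm3 had 20.3. The adhesion gene Lsamp (21.2) and the histone deacetylase gene Hdac9 (24.8) were also among them. These genes were picked after their values were seen. The 25 peaks over starts had a median strength of 23.8 (range 17.7 to 45.5) and a median width of 969 bp. The other 724 had 29.3 (16.8 to 113) and 610.5 bp. Peaks over starts were thus not stronger at the median than the rest. Their greater width is not read as a difference, since a wider peak meets a window more often.

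Median CpG content was higher at starts with a counted peak than at those classed as no peak, with overlapping ranges. The no-peak class can include starts under resting peaks near gene ends, which were not counted. Windows of neighbouring starts can overlap and were counted apart, so they are not separate sites. The groups also differ in kind. Of the 321 starts, 268 belonged to the very long gene itself and the rest to other genes within it, nearly all classed as no peak. Of the 29 windows that a long-gene peak overlapped, 19 lay wholly inside the peak and 10 in part, with as few as 27 bases in it at Zfp423. Windows overlapped by a long-gene peak held a median of 20 CpG dinucleotides (range 3 to 54, n = 29), windows overlapped by a shared peak 23 (12 to 46, n = 13), and windows with no peak 5 (0 to 63, n = 276). An observed to expected CpG ratio of 0.6 or more was found in 19 of 29 windows overlapped by a long-gene peak (65.5%), against 38 of 276 with no peak (13.8%) and 35.8% of all 32851 listed windows. Median GC content was 58.7% in windows overlapped by long-gene peaks and 48.3% with no peak. Whether base composition had a part in the peak calls was not tested.

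**Figure D1:**
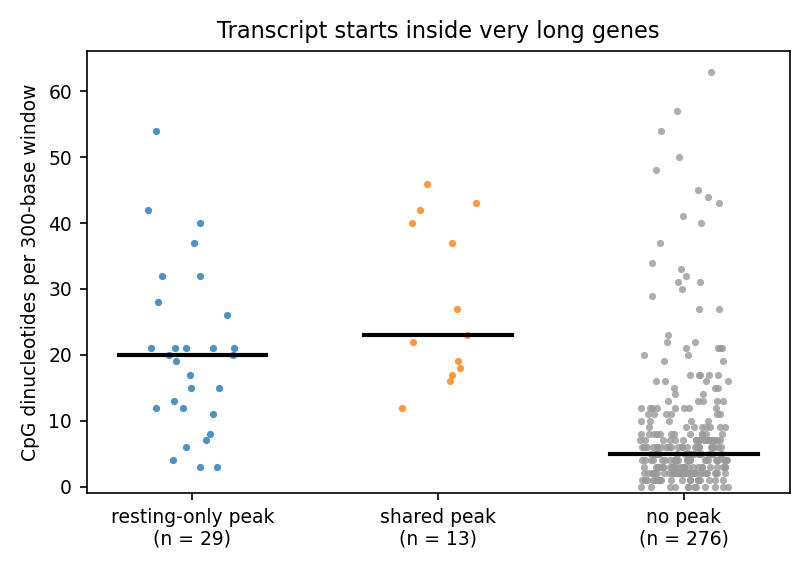
CpG dinucleotides per 300-base window (y axis) at transcript starts inside very long genes, for starts with a resting-only peak, with a shared peak and with no peak. Each point is 1 start window and the bar is the median, 20, 23 and 5; the no-peak group spans 0 to 63 and so overlaps both others. Resting peaks within 1 kb of a gene end were not counted, so some no-peak windows can lie under one.

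Motif letters were searched in the same windows on both strands. TGANTCA, the site of AP-1, was found in 4 of 29 windows overlapped by long-gene peaks (13.8%), those of Hdac9, Creb5, Nebl and Zfp385b, against 7.61% of windows with no peak and 7.81% of all listed windows. TATAAA was found in 1 of 29 (3.45%), the window of an Adgrl3 start, against 17.4% with no peak and 13.6% of all windows. The 12-letter CTCF core consensus matched in 0 of the 321 internal start windows and in 0.557% of all listed windows. At so low a share few matches could be met in 321 windows, and sites that depart from the consensus were not sought. The 0 is thus not read as a lack of CTCF sites. None of the motifs contains another, and a match is a description of sequence only.

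The other 724 long-gene peaks outside chromosome 18 lay over no internal start, and the 10 strongest were among them. The strongest was inside Iqsec1, which encodes an exchange factor for ARF GTPases, at chr6:90737281-90737834, with 58.0 and 55.4 in the replicate columns, and an NMDA peak lay 7.93 kb from it. Col22a1, a collagen gene, had 59.0 and 47.7 at chr15:71917376-71918220. The read-through gene Iqschfp had 50.1 and 43.9. In these 3 both replicates were high and within a factor of 1.5 of each other.

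Of the next 7, 4 were also within a factor of 1.5. Rad51b, a gene of homologous recombination, had 53.5 and 37.6 at chr12:79612587-79613609. The ribonuclease gene Dis3l2 had 54.2 and 35.5, and the kinase gene Cdk14 36.1 and 48.4. Shank2, a scaffold of the postsynaptic density, had 57.6 and 24.6 at chr7:144217065-144217753. Here the columns were more than a factor of 2 apart. The 10 strongest were completed by the kinase gene Pak7 (52.7 and 29.2), the P/Q-type calcium channel gene Cacna1a (40.9 and 37.5 at chr8:84363764-84364245), and Maml3, a Notch coactivator gene (45.4 and 32.9).

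Over all 787 peaks the summed strength ran from 16.8 to 113 with a median of 28.9. The first replicate column had a median of 14.4 and the second 14.2, and the first was the higher in 406 of 787 peaks. Both columns were within a factor of 1.5 of each other at 477 peaks and more than a factor of 2 apart at 122. Across the peaks, which share both libraries, the columns had a Spearman correlation of 0.36 (n = 787). Only peaks that passed in both replicates are listed, which limits what this value can say of agreement.

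**Figure D2:**
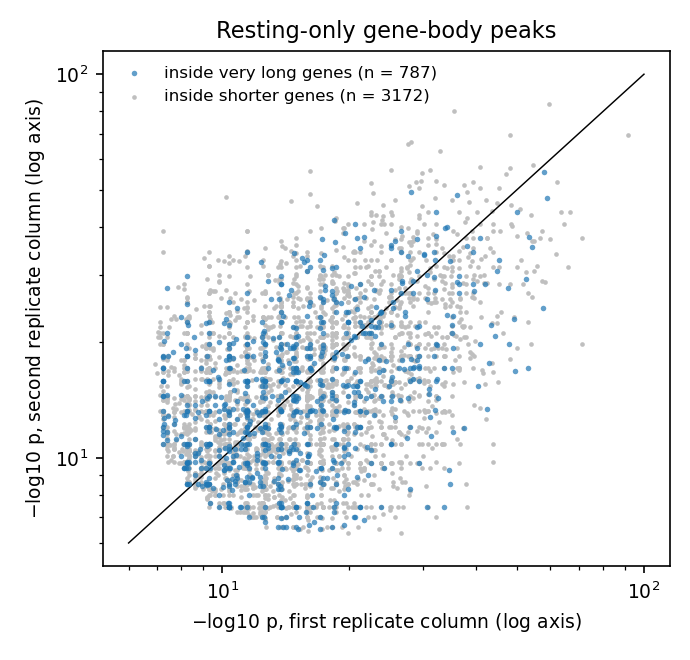
The −log10 p of each replicate column (both axes logarithmic) for 787 resting-only peaks inside very long genes and 3172 inside shorter genes; the line marks equal values. The sets overlap over most of their range, which reaches 59.0 and 55.4 for very long genes and 91.8 and 83.7 for shorter ones, with medians of 14.4 and 14.2 in the columns for very long genes and 14.8 and 14.3 for shorter ones.

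Set against resting-only peaks inside shorter protein-coding genes, long-gene peaks had close median strengths and widths. Median strength was 28.9 against 29.5, a log2 difference of −0.03, with −0.04 and −0.02 in the single replicate columns, and the quartiles were 23.1 and 39.0 against 23.1 and 40.4. Median width was 615 bp against 582 bp. An IDR (irreproducible discovery rate) of 0.01 or less was reached by 53.9% of long-gene peaks (50.3 to 57.4%) and 54.8% of those inside shorter genes (53.1 to 56.6%). Shared resting peaks inside very long genes had a median strength of 48.2 and a median width of 1047 bp (n = 61), and overlap, the criterion that defines them, depends on width.

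The density of peaks along the gene differed more than their strength. Very long genes held 2.54 resting-only peaks per Mb of gene body (exact Poisson 95% interval 2.36 to 2.72) and shorter genes 4.83 (4.67 to 5.00), a ratio of 0.52. The body counted here lies more than 1 kb from any gene end. Within the very long genes the density was 3.25 per Mb at 300 to 500 kb (400 peaks), 2.44 at 500 to 1000 kb (266 peaks) and 1.54 at 1000 kb or more (121 peaks), and these intervals did not overlap. Among shorter genes it was 8.46 under 10 kb, 5.52 at 10 to 30 kb, 4.95 at 30 to 100 kb and 4.27 at 100 to 300 kb. Shared resting peaks were likewise sparser in very long genes, with 0.20 per Mb against 0.46.

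**Figure D3:**
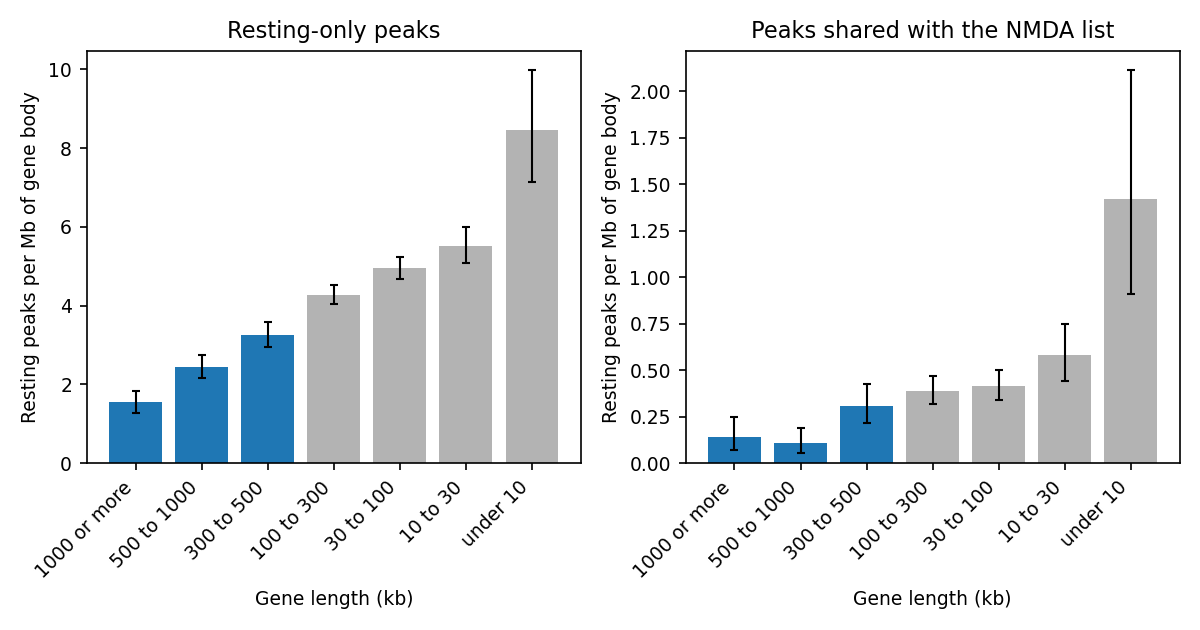
Resting peaks per Mb of gene body (y axis) by gene length class (x axis), for resting-only peaks and for peaks shared with the NMDA list; blue bars are genes of 300 kb or longer and whiskers are exact Poisson 95% intervals. Resting-only density was 1.54 per Mb in genes of 1000 kb or more and 8.46 in genes under 10 kb, with every class between them in order of length.

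The peaks were spread over many genes. Of 557 very long genes 378 held at least 1 (67.9%), when a peak inside overlapping genes was given to the longest. A single peak was found in 174 genes, and 115 genes with 3 or more held 435 of the peaks. A gene of 1000 kb or more held a peak in 46 of 59 cases (78.0%, 65.3 to 87.7%), against 220 of 330 genes of 300 to 500 kb (66.7%, 61.3 to 71.7%). The longest class thus had the largest share of genes with a peak and the lowest density.

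Camta1 and Pde4d held the most, 9 each. Camta1, which encodes a calmodulin-binding transcription activator, lies at chr4:151059523-151861768, and its peaks ranged in strength from 19.2 to 60.3. Of these, 5 lay within the last 100 kb of the gene, between 704.5 and 788 kb from the 5′ end, and included the strongest at chr4:151139429-151139874 (25.2 and 35.2 in the replicate columns). The cAMP phosphodiesterase gene Pde4d (chr13:108654177-109955969) had peaks of 19.1 to 50.2. None lay in its first 462 kb. Neither gene had an NMDA peak in the gene or within 1 kb of it.

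Arhgap26, a GTPase-activating protein gene, and the genes Ntm, Thsd4 and Gse1 held 7 peaks each. Gse1 was the most densely occupied of all genes with 3 or more, at 19.8 per Mb over 353 kb, with strengths from 16.8 to 37.0. In Thsd4 5 of the 7 lay between 246 and 284 kb from the 5′ end. Rabgap1l, Frmd4a and Lsamp had 6 each. Slit3, which encodes a ligand of Robo receptors, was 1 of 10 genes with 5, and is named as the one with the strongest peak. Its strongest peak, at chr11:35452358-35452983, had 53.2 and 17.1, and the next peak began within 1 kb of it.

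**Figure D4:**
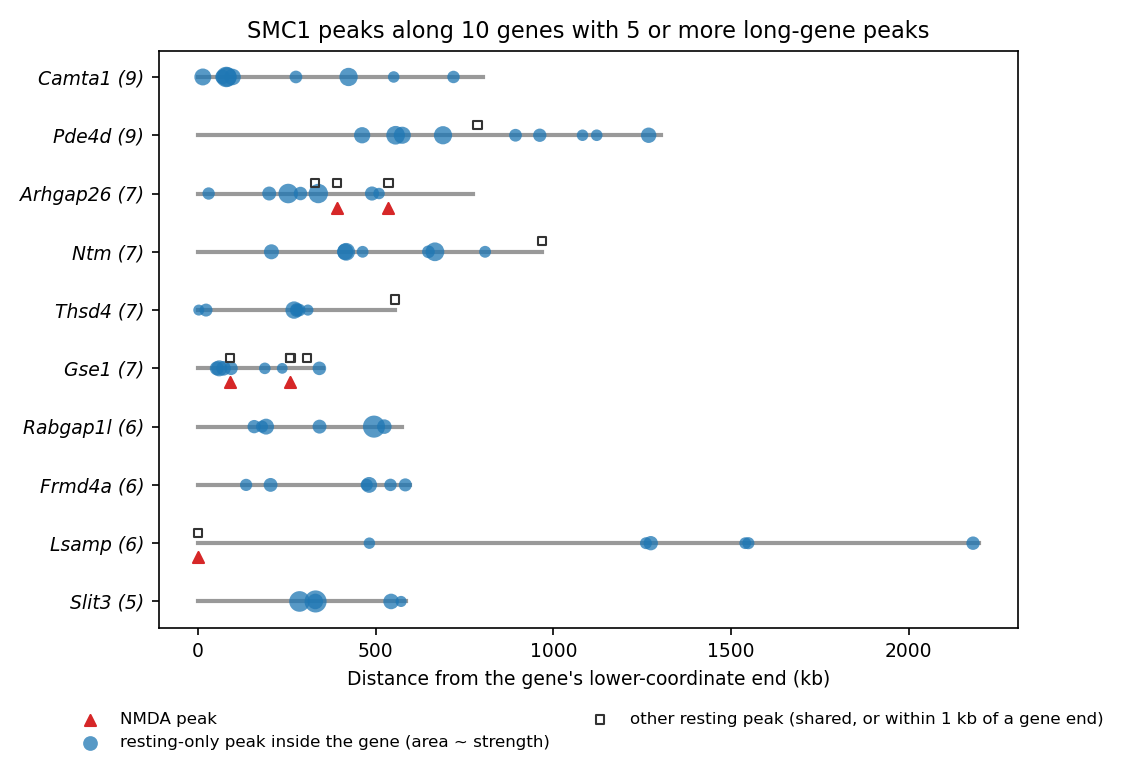
Positions of SMC1 peaks along the 9 genes with 6 or more long-gene peaks and Slit3, the one with the strongest peak of the 10 genes tied at 5, as distance in kb from the gene's lower-coordinate end; red triangles are NMDA peaks, blue circles long-gene peaks with area in proportion to strength, and squares other resting peaks. Camta1 and Pde4d carry 9 long-gene peaks each with no NMDA peak, while Arhgap26 and Gse1 carry 7 each together with 2 NMDA peaks.

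Distances between peaks of the same gene varied widely, and no expected spacing was computed for comparison. Among the 613 peaks that shared their gene with another, the median distance to the nearest was 54.4 kb, with quartiles of 12.9 and 159.8 kb. It was at most 10 kb for 133 and at most 5 kb for 81. The closest pairs were in Slit3 (0.71 kb between midpoints), Zbtb20 (0.78 kb) and Tenm3 (0.82 kb), named after their values were seen. Whether such pairs are parts of 1 wider site was not tested.

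The 10 longest genes varied in what they held. Lsamp (2197 kb) had 6, Dlg2 (1973 kb) and Nrxn3 (1612 kb) 4 each, Ptprd (2271 kb) 3 and Macrod2 (1998 kb) 2. Cntnap2 (2241 kb) and Csmd1 (1643 kb) had 1 each. The dystrophin gene Dmd (2390 kb), the receptor gene Lrp1b (2058 kb) and Fhit (1612 kb) had none. Dmd is on the X chromosome, where very long genes held 4 peaks in all, or 0.27 per Mb (0.074 to 0.69). The X chromosome had 114 of all resting peaks. The autosomes lay between 1.74 and 4.07 per Mb. The X peaks were in Gpc3 (2 peaks), Nhs and Fgf13.

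For the 610 peaks whose gene had a strand in the promoter table, 5 equal sections from 5′ to 3′ held 132, 99, 113, 108 and 158, or 21.6, 16.2, 18.5, 17.7 and 25.9%. For resting-only peaks inside shorter genes the sections held 19.7, 15.5, 16.3, 23.1 and 25.4% (n = 2487). Sections 1 and 5 held the largest shares, with overlapping intervals (18.4 to 25.1% and 22.5 to 29.6%). Within 10 kb of an end there were more peaks at the 5′ end (43, or 7.05%) than at the 3′ end (22, or 3.61%). The order was reversed at wider limits, with 77 against 86 within 50 kb and 134 against 168 within 100 kb. Section 4 was the one where the intervals of the sets did not overlap (14.8 to 21.0% against 21.5 to 24.8%). The median distance of a long-gene peak to the nearer end of its gene was 100.1 kb, with a range from 1.01 to 981 kb. An annotated noncoding gene overlapped 34 of the midpoints (4.32%), against 4.13% for peaks inside shorter genes.

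Lists of genes with known roles were described next, by how many of their very long genes held a long-gene peak, beside 67.9% of all very long genes. The lists share 13 genes among them. Of phosphodiesterases, which end cAMP and cGMP signals, 7 of 7 did so, with 25 peaks or 6.39 per Mb, against 2.47 per Mb over the whole length of all very long genes. Pde4d alone held 9 of the 25 and Pde10a 5. The list had a median length of 461 kb, and all genes of 300 to 500 kb had 3.25 per Mb of gene body. The strongest phosphodiesterase peaks were in Pde10a (32.1 and 37.8), Pde1c (summed strength 66.3), Pde4b (62.5) and Pde7b (61.2). Postsynaptic scaffold genes did so in 14 of 14 cases (3.29 per Mb), with strengths up to 82.2 in Shank2, 63.3 in the ankyrin gene Ank3, 50.2 in Dlgap1 and 47.96 in Dlg2. These were the lists in which no very long gene was without a peak.

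Calcium and sodium channel genes did so in 12 of 13 cases (4.41 per Mb), Ryr2 being the exception. Cacna1a, the IP3 receptor gene Itpr1 (33.8 and 39.8), the L-type channel gene Cacna1d (67.8) and Cacna2d3 (59.3) had the strongest. Potassium channel genes did so in 9 of 13 (3.01 per Mb), led by Kcnip1 (64.8), Kcnt2 (60.7), Kcnq3 (51.0) and Kcnq5 (33.3). Transcription factor genes of neurons did so in 16 of 21 (3.50 per Mb), led by Camta1 (60.3), Myt1l (52.1), Rora (52.1) and Cux1 (45.3), with none in Sox5, Sox6, Npas3, Ebf1 and Nr3c2. The calcium and sodium channels (median length 451 kb) and the transcription factors (541 kb) lay above the 2.47 per Mb of all very long genes. By length class, all genes of 300 to 500 kb had 3.25 per Mb of gene body and those of 500 to 1000 kb 2.44. The potassium channels had a median length of 417 kb. Their 3.01 per Mb of whole gene length stands beside 3.25 per Mb of gene body for all genes of 300 to 500 kb. Gene body leaves out the gene ends, so these measures are not strictly alike and no order is read from them. The share of potassium channel genes with a peak (69.2%) was near that of all very long genes.

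Axon guidance genes did so in 13 of 16 cases (2.42 per Mb). The semaphorin gene Sema6d (38.1 and 35.7) and Slit3 (70.4) led, followed by Plxna4 (66.3) and the Slit receptor gene Robo1 (60.2). Splicing factor genes had 4 of 6 (2.09 per Mb), with 43.6 in Rbfox3, 28.2 in Rbfox1, 23.5 in Celf2 and 21.1 in Msi2. Of inhibitory synapse genes 3 of 4 had a peak (2.04 per Mb), at Gabbr2 (44.8), Gabrg3 (24.8) and Gphn (23.0). The axon guidance value was close to the 2.47 per Mb of all very long genes. The splicing factor and inhibitory synapse values rest on 10 and 4 peaks, so no direction is read from them.

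Lists of adhesion genes and of fragile-site genes had fewer peaks per Mb, but not a smaller share of genes with a peak. Neurexins, contactins and other synaptic adhesion genes did so in 22 of 32 cases (1.58 per Mb), with Ntm (50.7), Negr1 (45.0), Opcml (44.7) and Ptprd (42.0) the strongest, and with none in 10 genes, among them Il1rapl1 on the X chromosome, Erbb4 and Lrrtm4. Cadherins and protocadherins did so in 10 of 14 (1.49 per Mb), led by Fat3 (27.99 and 49.3, 1.63 kb inside its 5′ end), Pcdh15 (47.8), Cdh23 (44.4) and Cdh13 (35.8). Genes at common fragile sites, which break under replication stress in human cells, did so in 17 of 24 (1.26 per Mb), with peaks in Rora (52.1), Dlg2 (47.96) and Macrod2 (46.8) among others. Their shares with a peak were 68.75, 71.4 and 70.8%, near the 67.9% of all very long genes. These lists hold longer genes, with median lengths of 996, 868 and 1361 kb against 451 kb for all very long genes. Density fell with length among all very long genes, to 2.44 per Mb of gene body at 500 to 1000 kb and 1.54 at 1000 kb or more. The lower densities are thus not read as a property of adhesion genes.

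Glutamate receptor genes had the lowest density, 7 of 13 and 0.99 per Mb, at a median length of 460 kb. This value rests on 8 peaks, so no direction is read from it. Grin2b, an NMDA receptor subunit gene, had the strongest, at chr6:135907461-135908165 with 30.1 and 34.0. The kainate receptor genes Grik1 (46.1) and Grik4 (38.6) and the delta receptor gene Grid1 (31.2) followed. Grin2a, Gria1, Gria4, Grm5 and Grm7 were among those of 300 kb or longer that held none. Glial lists had 1 gene each of 2, Gpc5 (42.1) for astrocytes and Pcdh15 for the oligodendrocyte lineage, a gene counted above with the protocadherins as well.

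**Figure D5:**
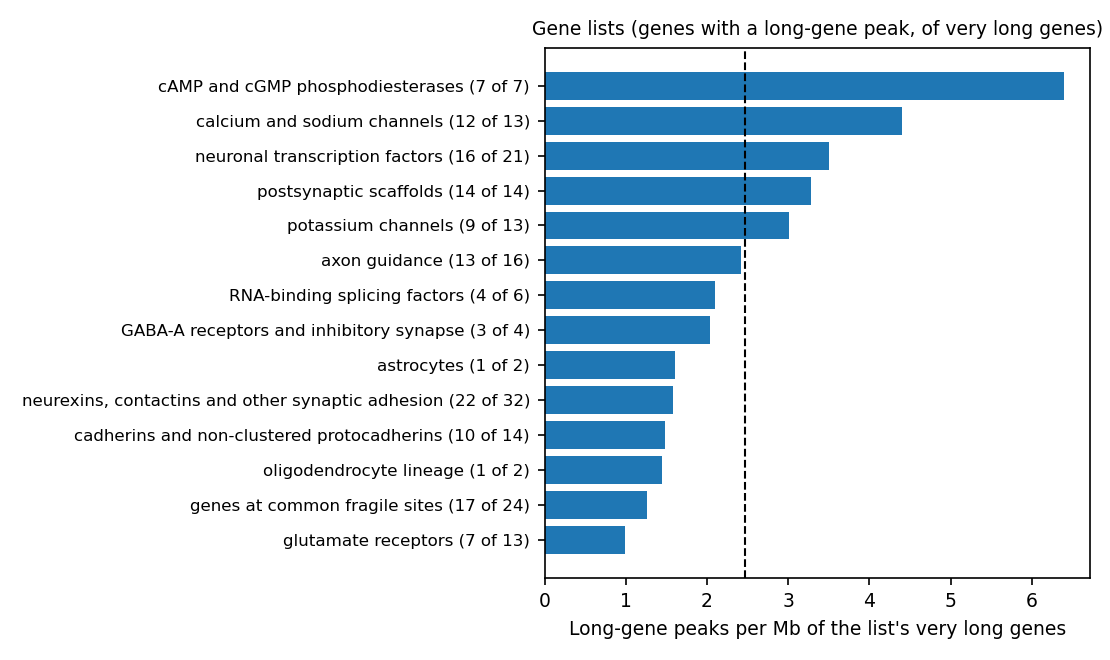
Long-gene peaks per Mb of the very long genes of each list (x axis, whole gene length), with the number of genes holding a peak of all very long genes in the list; the dashed line is the 2.47 per Mb of all very long genes. Phosphodiesterases stand at 6.39 (25 peaks) and glutamate receptors at 0.99 (8 peaks), and lists of few genes rest on few peaks.

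Distances to the NMDA list are a description only. The rule removed sites with an overlapping NMDA peak, and distances from other sets of sites are not given for comparison. The nearest NMDA peak was at a median of 567 kb, and it lay within 5 kb for 15 of 787 and within 100 kb for 73. The list of 1684 peaks is itself sparse. Of the 378 genes with a long-gene peak, 90 had an NMDA peak in the gene or within 1 kb of it (23.8%, 19.6 to 28.4%), against 28 of the 179 very long genes without one (15.6%, 10.7 to 21.8%) and 21.2% of all very long genes. In 50 of the 90 the NMDA peaks lay away from both ends. At the 5′ end, where the strand was known, an NMDA peak was found in 10.9% and a resting peak in 29.0% of the 293 genes with a long-gene peak. In the 132 genes without one these were 6.82% and 33.3%. These shares come from the lists that chose the peaks, and nothing was tested.

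The NMDA peaks of such genes were strongest in Stard13, with a strength of 57.6 at chr5:151368047-151369290, Cadm1 (54.8), Cux1 (47.8), Grik4 (46.4), Plcb1 (45.8) and the cohesin subunit gene Stag1 (41.8). In Cadm1, Cux1, Grik4 and Plcb1 they lay at an end of the gene, where a resting peak was also found. Stard13 and Stag1 held theirs inside the gene. Strengths of the NMDA and resting lists depend on library depth and were not compared.

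Some sites were excluded or kept by a narrow margin. In Setbp1 an NMDA peak of 17.7 and 13.9 lay 63 bp from a long-gene peak of 26.4 and 14.2. In Arhgef28 the NMDA peak had 8.45 and 10.8, the resting peak 27.6 and 19.8, and the gap was 64 bp. On the other side of the limit, shared peaks in Gse1 (28.6) and Pard3 (21.2) overlapped an NMDA peak by 113 and 153 bp. The shortest genes kept were Zfp423 and Kcnq3, each just over 300 kb, and the longest left out with such a peak were Akap13 (18.9) and Atp2b2 (24.8), each just under 300 kb. At gene ends, peaks in Shisa6 (23.3) and B3galt1 (22.3) were kept at 1008.5 and 1045 bp. Peaks inside Gse1 (89.3) and Arhgap26 (69.0) were left out at 989.5 and 955.5 bp from the ends of the genes 1700016A09Rik and Fgf1.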

How the data were processed

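Peaks of SMC1 ChIP-seq were analysed from 1 deposited list per condition. Per the submitters' processing notes, reads passed through BWA, FastQC, MACS2, SAMtools and Trimmomatic, in no stated order, with the builds GRCm38.p6 and mm10. No settings are stated there. The deposited lists hold 20 columns in the layout of the IDR tool: a −log10 p for each of 2 replicates, the sum of these, a global IDR as −log10, and an IDR score scaled from it. The lowest global value of the deposited lists was 1.3 (−log10), an IDR of 0.05. A −log10 p grows with library depth, which is unknown, so it was compared within a list only. Values of the input libraries and of peaks seen in 1 replicate were not used here.

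A resting peak was resting-only when no NMDA peak overlapped it by 1 bp or more. Genes came from a RefSeq table of GRCm38.p6 (49997 genes, 21900 protein-coding), and starts, strands and sequences from a RefSeq promoter table of the same build, which holds 425 of the 557 very long genes. No genome was given, so the DNA under other peaks was not analysed here. Very long means 300 kb or more from start to end. Classes of peaks are described with exact intervals and no test, since peaks are not replicates and each condition has 1 list. Named are the 10 strongest peaks, the 10 genes with the most peaks (ties by strongest peak), the 10 longest genes, up to 4 genes of each of 14 lists, the 6 genes with the strongest NMDA peak, and those nearest to each limit; other names are said to be picked later, and some genes that the rule names are not reported here. Peaks and lists were chosen with earlier results of these data known. The placing of peaks was tested on simulated data, with 600 of 600 planted peaks recovered. Planted peaks kept clear of the 1 kb limit, so placing close to it was not tested. Nor was the overlap of peaks with start windows. Python 3.11.15, numpy 2.4.6, pandas 2.3.3 and scipy 1.17.1 were used.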

Additional observations from a re-analysis of the deposited data

How the results depend on the processing

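The number of long-gene peaks was 787. It was 387 with a gene length of 500 kb or more and 424 with a resting IDR up to 0.01, and it stayed within a factor of 1.5 under the other 5 alternatives. Peak density was 2.54 per Mb, and 2.87 with genes of 200 kb or more, 2.06 with genes of 500 kb or more, 2.27 more than 5 kb from gene ends and 1.37 with an IDR up to 0.01. Its ratio to shorter genes lay between 0.45 and 0.57 under all 7 alternatives. The log2 difference in strength from peaks inside shorter genes was −0.03. It was 0.0017 with genes of 200 kb or more, and −0.0673 with genes of 500 kb or more and −0.0668 with an IDR up to 0.01. Leaving out the 25 peaks over internal starts, a choice made after seeing the data, gave −0.01. Counting peaks with a midpoint within 1 kb of an internal start, likewise chosen after seeing the data, gave 30 in place of 25. The tighter IDR limit and the longer gene limit keep fewer peaks by construction. No paired analysis was possible because the replicate columns carry no numbers and no result comes from a test. A replicate could not be left out of a list, and the single columns gave −0.04 and −0.02. Depth limits what absence from the NMDA list can show: a site missing there fell short of the peak limit in these libraries.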
